A study of Homo sapiens with 6 samples.

Results

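Metallothioneins are small proteins of the cytosol and nucleus rich in cysteines, whose sulfur atoms hold zinc, copper and cadmium ions. The genes measured here were MT1A, MT1E, MT1F, MT1G, MT1M, MT1X and MT2A, together with MTF1, which encodes the zinc-sensing transcription factor that drives metallothionein transcription. They were taken from the deposited count table by gene symbol, and all 8 were found among the 31831 genes listed. RNA-seq was performed on HK-2 cells, an immortalized line of human renal proximal tubule epithelium, kept in high glucose, the condition both groups share. The cells carried a control lentivirus with the empty vector (HG-NC, 3 libraries; the labels call it the control plasmid) or a lentivirus overexpressing hnRNP-F (HG-OE, 3 libraries), an RNA-binding protein of the hnRNP H/F family. The study compared HG-OE with HG-NC to ask which transcripts change with hnRNP-F. Both groups come from a single line, the construct is driven by a viral vector rather than by the cell's own gene, and counts per gene do not separate its transcripts from the endogenous ones. The study cites the same Gene ID where it describes overexpression in HK-2 cells and in a mouse line, and it is not the one that RefSeq gives to human HNRNPF. The sequence of the construct was not looked at, and how much of its RNA is in the count of the human gene is not known.

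In the proximal tubule, metallothioneins buffer free zinc, bind cadmium that is taken up from the filtrate and scavenge reactive oxygen species. Zinc entering the cell binds MTF1, which moves to the nucleus and binds metal response elements (MREs) in metallothionein promoters, so that the mRNA level follows the metal supply. Glucocorticoids and oxidative stress are further known inducers, MT2A being the human gene usually studied for both. Genes of the zinc exporter (SLC30) and importer (SLC39) families set the supply on the other side of this loop.

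The 7 metallothionein genes lay in 1 cluster on chromosome 16 (GRCh38, chr16:56608584-56684196), which spans 75.6 kb. MT2A, MT1E, MT1M, MT1A, MT1F and MT1X are on the plus strand and MT1G is on the minus strand, whereas MTF1 lies on chromosome 1 (chr1:37809574-37859592, minus strand). Each metallothionein gene has 3 exons in the transcript used (GENCODE release 44, the coding transcript with the most cysteine codons). The coding sequences are shown for the 4 genes that fell in HG-OE, because near-identical paralogs bear on how far reads can be told apart. They are given 5′ to 3′ without the stop codon, and capitals mark the cysteine codons. With their introns, these coding sequences span chr16:56608656-56609351 (MT2A), chr16:56625852-56626968 (MT1E), chr16:56682541-56684046 (MT1X) and chr16:56658059-56659161 (MT1F).
MT2A: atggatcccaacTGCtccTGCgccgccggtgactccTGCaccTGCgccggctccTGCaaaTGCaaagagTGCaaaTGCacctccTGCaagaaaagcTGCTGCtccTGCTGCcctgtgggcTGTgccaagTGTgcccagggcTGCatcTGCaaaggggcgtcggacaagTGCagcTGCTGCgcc
MT1E: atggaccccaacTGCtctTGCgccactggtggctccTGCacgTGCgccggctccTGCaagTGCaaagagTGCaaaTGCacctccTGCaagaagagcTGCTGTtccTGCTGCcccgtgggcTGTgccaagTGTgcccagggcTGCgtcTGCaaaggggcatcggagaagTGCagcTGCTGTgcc
MT1X: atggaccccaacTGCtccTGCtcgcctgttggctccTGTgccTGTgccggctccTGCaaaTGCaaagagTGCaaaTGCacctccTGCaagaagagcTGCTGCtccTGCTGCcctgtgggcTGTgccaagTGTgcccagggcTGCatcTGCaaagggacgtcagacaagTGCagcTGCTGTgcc
MT1F: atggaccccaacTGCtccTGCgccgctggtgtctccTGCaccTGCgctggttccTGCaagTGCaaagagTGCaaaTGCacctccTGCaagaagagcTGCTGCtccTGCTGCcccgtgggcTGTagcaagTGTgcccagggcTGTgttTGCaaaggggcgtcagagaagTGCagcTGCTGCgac

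Of 61 codons, 20 encoded cysteine in each of these sequences and in MT1M (32.8%). MT1G has 62 codons with 20 for cysteine. In the 6 genes of equal length, all 20 cysteine codons fell at shared positions, and 34 codons were identical in every gene. Over the 21 pairs of the 7 genes, identity of the coding sequence ran from 88.5% to 94.5%, with a median of 91.8%. The longest run of bases shared exactly by a pair of transcripts was 32 (MT1E and MT2A) to 96 (MT1G and MT1X), with a median of 53. The authors sequenced 150-nt paired ends and counted uniquely mapped reads. A read of full length is longer than the longest of these runs, but a trimmed read or short fragment could lie wholly in a shared stretch. Such a read could be dropped, and whether any was placed on a paralog was not tested. Counts of single metallothionein genes are uncertain to that extent.

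Promoters are shown for MT2A and MT1X, which moved together and have entries in the RefSeq promoter table (GRCh38.p14). That table matched 3 of the 8 genes, MT2A, MT1X and MTF1. The 250 bases before the start of MT2A are chr16:56608334-56608583 and those of MT1X are chr16:56682220-56682469, both on the plus strand. Capitals mark matches to the MRE core, searched as TGCACNC and TGCGCNC on both strands.
MT2A promoter: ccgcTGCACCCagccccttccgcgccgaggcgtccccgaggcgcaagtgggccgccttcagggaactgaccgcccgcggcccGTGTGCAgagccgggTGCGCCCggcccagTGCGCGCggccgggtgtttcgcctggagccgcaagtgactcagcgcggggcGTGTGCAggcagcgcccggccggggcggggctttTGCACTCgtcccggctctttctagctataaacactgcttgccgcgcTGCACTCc
MT1X promoter: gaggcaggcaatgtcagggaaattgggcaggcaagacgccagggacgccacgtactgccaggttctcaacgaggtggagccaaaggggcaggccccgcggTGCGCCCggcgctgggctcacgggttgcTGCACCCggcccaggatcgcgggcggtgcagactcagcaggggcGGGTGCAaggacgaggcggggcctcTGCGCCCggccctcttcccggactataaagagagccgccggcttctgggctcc

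Counting the 50 bases after the start as well, the MT2A window held 8 MRE core matches, 1 of which (position 31) lies after the start. The MT1X window held 4, at positions -150, -122, -78 and -53, and the MTF1 window (chr1:37859543-37859842, minus strand) held 0. The windows of MT1H and MT1B, metallothionein genes with 0 to 1 counts in every library, held 8 and 3 matches. Of 35116 RefSeq promoters of the same length, 29.6% held at least 1 such match, 0.601% at least 4 and 0.0199% at least 8. The AP-1 motif, searched as TGANTCA, was found once in the MT2A window, at position -104 and overlapping no MRE match, against 7.71% of all promoters with at least 1. The MT1B window also held 1, at position -146, and the MT1X, MT1H and MTF1 windows held 0. These matches describe the letters only.

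Libraries held 25507595 to 29444841 counted read pairs with TMM factors of 0.997 to 1.00, and 24342 to 26423 genes had a count. A count of 0 allows up to 3 counts, covering counting error only. HNRNPF, the overexpressed gene, had 311.2 ± 7.23 CPM (counts scaled to library size by TMM) in HG-NC against 435.2 ± 14.9 in HG-OE (mean ± SD, n = 3 each, edgeR adjusted p = 2.80e-07). Of 15 tubule markers, PAX8, CDH2, KRT8, KRT18, KRT19 and EPCAM were well counted, while LRP2 was at 0 in 5 of 6 libraries and AQP1 at 0 to 7 counts. Their summed level was 1782 to 1865 CPM in HG-NC against 1970 to 2526 in HG-OE, and its members moved both ways. KRT8 (log2 fold change 1.35), KRT18 (0.76) and CDH2 (0.25) were higher in HG-OE, and PAX8 (-0.51), KRT19 (-0.55) and EPCAM (-0.56) were lower (edgeR adjusted p from 9.13e-07 to 0.00101). HG-OE replicate 3 stood apart from the other libraries. Its 5 squamous markers summed to 61.8 CPM against 6.43 to 8.81 elsewhere. Its liver marker ALB had 4359 counts, against 78 in HG-NC replicate 3 and 0 to 4 in the other libraries. The 5 liver markers summed to 263.4 to 276 CPM in HG-NC against 460.9 to 580.4 in HG-OE, most of it SERPINA1. The part of these other cell types' markers in the values of the metallothionein genes was not tested beyond leaving out HG-OE replicate 3. The 3 leukocyte markers summed to 1.97 to 2.60 CPM in HG-NC against 1.20 to 1.57 in HG-OE, and CD68 was lower (log2 fold change -0.67, adjusted p = 0.0198), a call lost without HG-NC replicate 1 (adjusted p = 0.0889) or HG-OE replicate 2 (0.0781). The 3 endothelial markers summed to 0.393 to 0.591 against 0.990 to 1.38 CPM, and VWF was higher (1.73, adjusted p = 0.00444). The 5 fibroblast markers summed to 35.6 to 39.0 against 31.8 to 36.7 CPM, and PDGFRB was higher (2.25, adjusted p = 1.90e-05), at 8 to 16 counts against 59 to 65. The study describes its replicates as biological and its groups as parallel wells. The labels name no separate cultures, so p-values here measure the spread between these libraries, which may be technical.

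MT2A, the most abundant metallothionein of these cells, fell by 41.7% in HG-OE. Its gene (ENSG00000125148.7, chr16:56608584-56609497) had 618.7, 630.9 and 662.8 CPM in HG-NC replicates 1, 2 and 3 against 378, 381 and 355.4 CPM in HG-OE replicates 1, 2 and 3. Every HG-OE library lay far below every HG-NC library. The means were 637.5 ± 22.8 and 371.5 ± 14.0 CPM (SD, n = 3), a level 1.72-fold higher in HG-NC. In edgeR's quasi-likelihood test the log2 fold change was -0.78 (SE 0.041, Benjamini-Hochberg adjusted p = 6.66e-09). Leaving out single libraries, it ran from -0.80 to -0.75, and without HG-OE replicate 3 it was -0.75. By exact permutation of the libraries, the two-sided p for mean CPM was 0.1, and groups of 3 can reach no lower value. In bulk RNA, fewer cells expressing a gene and less RNA per cell cannot be told apart.

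MT1E (ENSG00000169715.15, chr16:56625475-56627112), a metal-inducible MT1 isoform, came next in abundance. It had 130.8, 127.3 and 135.2 CPM in the HG-NC libraries against 83.7, 79.5 and 79.8 CPM in the HG-OE libraries. The groups were well separated, at 131.1 ± 3.92 against 81.0 ± 2.36 CPM (SD, n = 3). Its log2 fold change was -0.70 (SE 0.042, edgeR adjusted p = 2.29e-08) and -0.68 without HG-OE replicate 3.

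MT1X (ENSG00000187193.9, chr16:56682470-56684196), at the far end of the cluster from MT2A, fell by a similar amount. It was counted at 71.1, 67.7 and 68.8 CPM in HG-NC but at 43.1, 41.6 and 44.8 CPM in HG-OE. The group means of 69.2 ± 1.75 and 43.2 ± 1.58 CPM (SD, n = 3) lay many SDs apart. The log2 fold change was -0.68 (SE 0.049, edgeR adjusted p = 1.03e-07) with all libraries and -0.71 without HG-OE replicate 3.

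MT1F (ENSG00000198417.7, chr16:56657731-56660698) was the least abundant of the 4 metallothionein genes that passed the test. Its libraries gave 27.4, 25.1 and 28.4 CPM in HG-NC against 18.8, 17.9 and 17.4 CPM in HG-OE, again without overlap. The means were 27.0 ± 1.72 and 18.0 ± 0.709 CPM (SD, n = 3). The log2 fold change was -0.58 (SE 0.07, edgeR adjusted p = 1.09e-05), and -0.56 without HG-OE replicate 3.

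**Figure D1:**
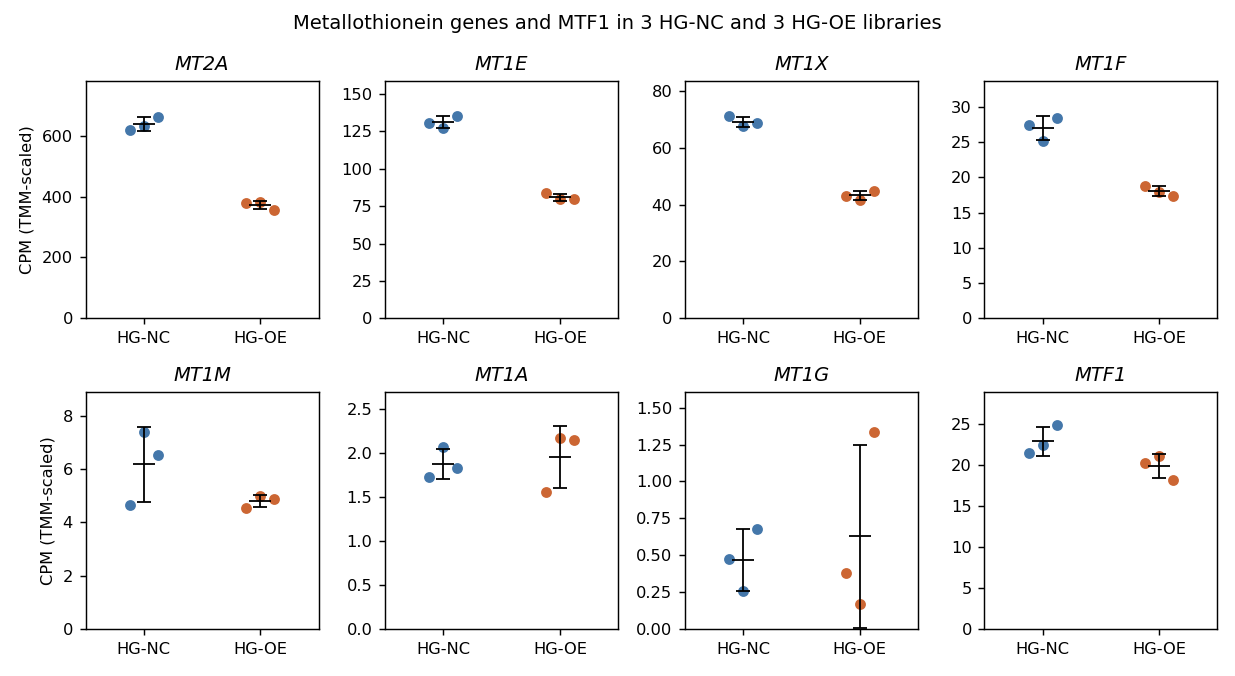
Each panel plots 1 gene, with TMM-scaled CPM on a y axis that starts at 0 and the HG-NC and HG-OE groups on the x axis. Points are libraries, ordered from replicate 1 to 3, and the bars give the mean and SD of 3 libraries. MT2A, MT1E, MT1X, MT1F and MTF1 show no overlap of the groups, MT1M and MT1A overlap, and MT1G is spread by its highest library at 1.33 CPM.

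The remaining metallothionein genes were scarce and did not pass the test. MT1M (ENSG00000205364.4, chr16:56632659-56633981) had 118, 200 and 182 counts in HG-NC against 132, 145 and 143 counts in HG-OE, which is 6.18 ± 1.40 against 4.80 ± 0.226 CPM (SD, n = 3). The groups overlapped, since HG-NC replicate 1 (4.64 CPM) lay within the HG-OE range of 4.55 to 4.98 CPM. The log2 fold change was -0.37 (SE 0.16, edgeR adjusted p = 0.0703). It passed when HG-NC replicate 1 (-0.53, adjusted p = 0.00838) or HG-OE replicate 3 (-0.38, adjusted p = 0.0275) was left out.

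MT1A (ENSG00000205362.11, chr16:56638666-56640087) had 44, 56 and 51 counts in HG-NC against 45, 63 and 63 counts in HG-OE. Its levels of 1.88 ± 0.175 and 1.96 ± 0.35 CPM (SD, n = 3) overlapped, and the log2 fold change was 0.06 (95% interval from the SE -0.35 to 0.47, edgeR adjusted p = 0.829). The interval excludes a fall of the size seen for MT2A. The sign turned without HG-OE replicate 2 (-0.019) and without HG-OE replicate 3 (-0.014).

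MT1G (ENSG00000125144.14, chr16:56666730-56668065) had 12, 7 and 19 counts in HG-NC against 11, 5 and 39 counts in HG-OE. HG-OE replicate 3 alone was high, and the other HG-OE libraries lay within or below the HG-NC range. The log2 fold change of 0.41 (95% interval -0.76 to 1.58, edgeR adjusted p = 0.591) became -0.77 without that library (adjusted p = 0.221). HG-OE replicate 3 is also the library with the highest sums of liver and squamous markers, whose part in the MT1G count was not tested.

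MTF1 (ENSG00000188786.10), which encodes the metal-sensing regulator of the family, was slightly lower in HG-OE. It had 21.5, 22.5 and 24.9 CPM in HG-NC against 20.3, 21.1 and 18.2 CPM in HG-OE. The groups did not overlap, but the highest HG-OE library came close to the lowest HG-NC library. The means were 22.9 ± 1.74 and 19.9 ± 1.48 CPM (SD, n = 3), with a log2 fold change of -0.21 (SE 0.079, edgeR adjusted p = 0.0401). The call rested on single libraries, as it was lost without HG-NC replicate 2 (adjusted p = 0.0793), HG-NC replicate 3 (0.206), HG-OE replicate 1 (0.063) or HG-OE replicate 3 (0.0997).

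The count table also listed 8 other genes of the family, and all had counts too low to be tested. The coding genes MT1B and MT1H had 0 to 1 counts in every library, MT1JP, MT1P1, MT1P3 and MT1XP1 had 0 to 2, and MT2P1 had 0 to 3. MT1L had 9 counts in HG-OE replicate 3 and 0 or 1 in the others.

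All 8 genes passed the low-count filter. At an adjusted p under 0.05, 5 of them were lower in HG-OE (MT2A, MT1E, MT1X, MT1F and MTF1) against 25.9% of the 17142 genes tested, and 0 were higher against 25.9%. In either direction the test called 51.8% of all genes, so 5 calls among 8 genes is close to the background, and the calls share a direction. At 2-fold or more, 0 of the 8 were called against 5.82% of all genes. The groups did not overlap in 5 of the 8 genes against 59% of all genes. The median log2 fold change was -0.58 over the 7 metallothionein genes and 0.011 over all genes tested. Without HG-OE replicate 3, 5 of the 8 were lower, with MT1M among them and MTF1 not. Over all genes, that fit called 4719 of 17366 lower and 4636 higher.

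**Figure D2:**
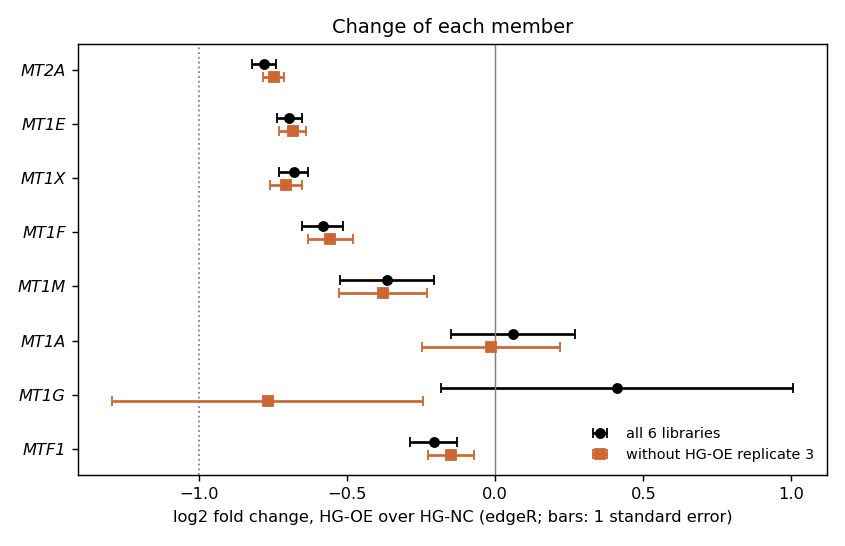
The x axis gives the log2 fold change of HG-OE over HG-NC from edgeR, with bars of 1 standard error, and each row is 1 gene. Black circles use all 6 libraries and orange squares leave out HG-OE replicate 3. MT2A, MT1E, MT1X and MT1F keep their place between -0.78 and -0.56, whereas MT1G moves from 0.41 to -0.77, and the dotted line marks a 2-fold fall.

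Summed over the 15 metallothionein genes listed, the level was 855.1, 860.9 and 904.5 CPM in HG-NC against 530.2, 527.5 and 506.2 CPM in HG-OE. The means were 873.5 ± 27.0 and 521.3 ± 13.1 CPM (SD, n = 3), 1.68-fold higher in HG-NC. The family took 0.0852% to 0.0907% of the counts of an HG-NC library and 0.0504% to 0.0531% of an HG-OE library. Ranked by FPKM (the deposited level per length of gene and library depth), MT2A was gene number 35, 32 and 29 in the HG-NC libraries and 67, 67 and 73 in the HG-OE libraries.

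Levels between genes were compared per length, in FPKM. In both groups the order was MT2A (624 ± 24.7 FPKM in HG-NC against 359.7 ± 13.6 in HG-OE), MT1E (111.5 ± 3.69 and 68.2 ± 2.37), MT1X (35.8 ± 0.866 and 22.1 ± 0.88), MT1F, MT1M, MT1A, MTF1 and MT1G. The lowest were MTF1, at 2.57 ± 0.207 and 2.20 ± 0.163 FPKM, and MT1G, at 0.56 ± 0.25 and 0.74 ± 0.73 FPKM. Among neighbours in this order, the ranges overlapped within a group for MT1F and MT1M alone, at 13.0 ± 0.863 against 10.8 ± 2.47 FPKM in HG-NC.

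Of the metallothionein counts, MT2A held 73.0% ± 0.535 in HG-NC against 71.2% ± 1.02 in HG-OE (SD, n = 3), with no overlap of the libraries. MT1E held 15.0% ± 0.262 and 15.5% ± 0.407, and MT1X held 7.93% ± 0.361 and 8.29% ± 0.497, both with overlap. The share of MT1F was 3.09% ± 0.154 and 3.46% ± 0.0774 and that of MT1A 0.215% ± 0.0221 and 0.376% ± 0.0726, each higher in every HG-OE library. The composition therefore shifted by under 2 percentage points for every gene while the sum fell.

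**Figure D3:**
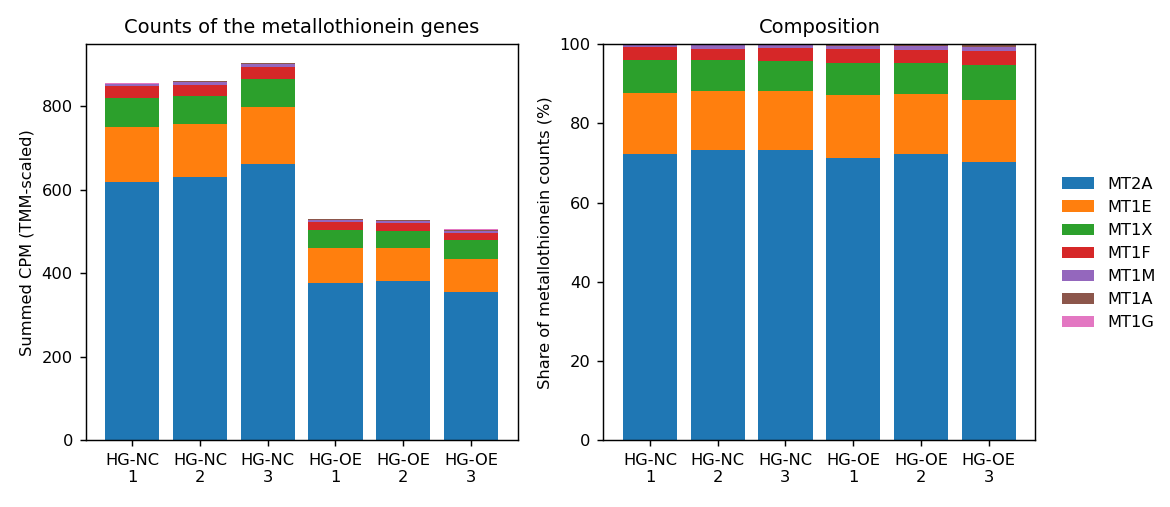
The left panel stacks the TMM-scaled CPM of 7 metallothionein genes in each library, on a y axis that starts at 0, and the right panel stacks their shares of the metallothionein counts in percent. With the scarce other genes of the family, the sums are 855.1 to 904.5 CPM in HG-NC against 506.2 to 530.2 CPM in HG-OE, and MT2A takes 70.2% to 73.3% of the counts in every library.

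The log2 ratio of each gene to MT2A in the same library does not depend on library scaling. This comparison was added after the values had been seen. For MT1E the mean log2 ratio was -2.28 in HG-NC against -2.20 in HG-OE, a difference of 0.085 with overlapping libraries (exact permutation p = 0.2, adjusted over 7 ratios 0.28). MT1X differed by 0.099 with overlap (exact permutation p = 0.3, adjusted 0.35). The ratio was higher in every HG-OE library for MT1F (by 0.20), MT1M (by 0.44), MT1A (by 0.83) and MTF1 (by 0.57). For these 4 the exact permutation test gave 0.1 and 0.175 after adjustment over the 7 ratios. Since 0.1 is the smallest p possible here, this test cannot decide whether the ratios differ.

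Genes within 10 Mb of MT2A with a mean of at least 100 counts numbered 66. Of the 66, 16 were higher and 19 lower, against 25.9% of all genes tested in each direction, and 0 passed 2-fold, against 5.82%. Those shares are over all 17142 genes tested, including genes with a mean under 100 counts, so the sets are unlike. The 66 had a median log2 fold change of -0.005 and a range of -0.80 to 0.80. Subtracting this median left MT2A at -0.77. The 3 nearest tested genes before the cluster were all lower. They were BBS2, at 25.9 kb (log2 fold change -0.21, edgeR adjusted p = 0.0464), RP11-413H22.3, at 107.1 kb (-0.24, adjusted p = 0.00952), and OGFOD1, at 129.5 kb (-0.41, adjusted p = 1.69e-06). The annotated spans of these 3 genes overlap one another, and whether shared reads enter their counts was not tested. OGFOD1 kept its call with any library left out. BBS2 lost it without HG-NC replicate 2 (adjusted p = 0.191), HG-NC replicate 3 (0.133), HG-OE replicate 1 (0.0774) or HG-OE replicate 2 (0.0997), and RP11-413H22.3 without HG-NC replicate 2 (0.0578) or HG-OE replicate 1 (0.0504). The 3 nearest after the cluster did not pass the test. NUP93, at 45.9 kb, had a log2 fold change of -0.088 (adjusted p = 0.104), HERPUD1 -0.007 (adjusted p = 0.895) and NLRC5 0.09 (adjusted p = 0.594). The lncRNA RP11-249C24.10, which starts just past the end of MT2A, had a mean of 28 counts and a log2 fold change of -0.12 (adjusted p = 0.776). The 197 genes around MTF1, taken with the same minimum of counts, had a median of 0.076. Of the 197, 77 were higher and 45 lower, against the same 25.9% of all genes tested in each direction.

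**Figure D4:**
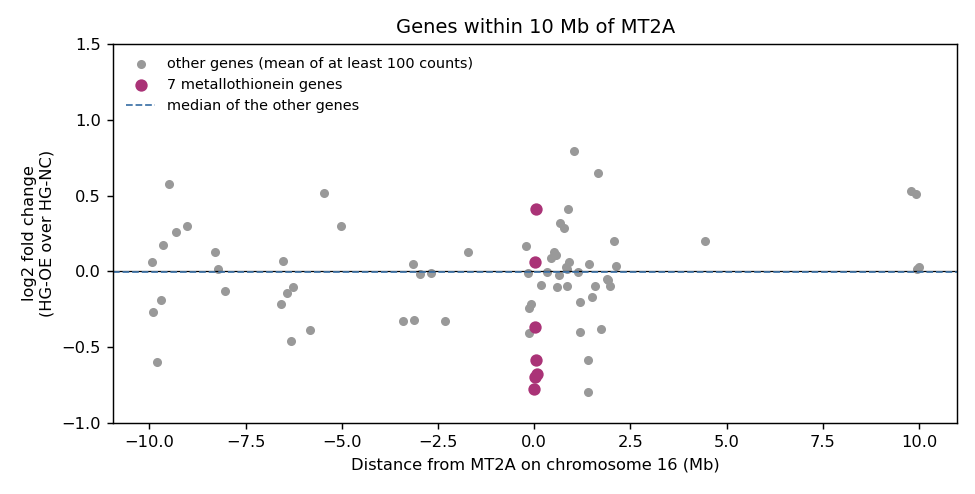
The x axis is the distance from MT2A on chromosome 16 in Mb and the y axis the log2 fold change of HG-OE over HG-NC. Grey points are 66 other genes with a mean of at least 100 counts, large points are the 7 metallothionein genes, and the dashed line is the median of the grey points at -0.005. At distance 0, MT2A, MT1E, MT1X and MT1F lie between -0.78 and -0.58, and MT1A and MT1G lie above 0.

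The genes whose profile over the 6 libraries was most like that of MT2A were ranked by the root mean square distance of log2 CPM, centred per gene, among 12360 genes with a mean of at least 100 counts. The nearest were SLCO2A1, a prostaglandin transporter (distance 0.0307, log2 fold change -0.77), TYW5, a tRNA-modifying enzyme (0.0335, -0.83), SGK1, a serum- and glucocorticoid-induced kinase (0.0343, -0.80), MCOLN2, a cation channel of endosomes (0.0364, -0.81), and GPATCH8 (0.0366, -0.76). None lies on chromosome 16. MT1E stood at a distance of 0.0572, with 43 genes nearer to MT2A, MT1X at 0.09, with 213 nearer, and MT1F at 0.113, with 373 nearer. MTF1 was farther off, at 0.29 with 3238 genes nearer. The distance takes in the difference between the groups as well as the spread within them.

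The zinc transporters did not move one way. Of 10 zinc exporter genes (SLC30), 9 were listed and 7 tested, with a median log2 fold change of -0.14. Of the 7, 4 were lower in HG-OE and 0 higher, against 25.9% of all genes tested in each direction. SLC30A1, the zinc exporter of the plasma membrane and itself driven by MTF1, had 138.7 ± 5.82 CPM in HG-NC against 99.6 ± 6.54 CPM in HG-OE (SD, n = 3). Its log2 fold change was -0.48 (SE 0.051, edgeR adjusted p = 4.15e-06), and -0.43 without HG-OE replicate 3. SLC30A4, which loads zinc into vesicles, had the largest fall of the list (-0.67, adjusted p = 0.0142), a call lost without HG-NC replicate 3 (-0.51, adjusted p = 0.0895). SLC30A10 was left untested, with 73 counts in HG-OE replicate 3 and 0 to 1 in the others.

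Of 14 zinc importer genes (SLC39), 11 were tested, with a median log2 fold change of 0.089. Of the 11, 4 were higher and 3 lower, against 25.9% of all genes tested in each direction. SLC39A7, which releases zinc from the endoplasmic reticulum, rose by 0.38 on the log2 scale (adjusted p = 2.56e-06). SLC39A8, an importer of zinc and manganese, fell by 0.66 on that scale (adjusted p = 3.71e-06), from 56.0 ± 0.804 to 35.5 ± 4.06 CPM. SLC39A1, the best counted of the list, rose by 0.18 (adjusted p = 5.89e-04). Of 11 copper-handling genes, 5 were higher and 4 lower, against the same 25.9% in each direction. SCO2, which helps deliver copper to cytochrome c oxidase, had the largest rise (0.62, adjusted p = 2.83e-06), and ATP7A, a copper-exporting ATPase, the largest fall (-0.58, adjusted p = 6.51e-04). SOD1, the copper- and zinc-binding superoxide dismutase, had -0.098 (adjusted p = 0.0625).

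Among 6 other genes known as MTF1 targets, the median log2 fold change was -0.35. Of the 6, 4 were lower and 0 higher, against 25.9% of all genes tested in each direction. They were PGF, a growth factor of the VEGF family (-0.71, adjusted p = 0.0033), SLC30A1, SLC39A10, another zinc importer (-0.44, adjusted p = 4.83e-06), and SELENOW, a small selenoprotein (-0.25, adjusted p = 5.32e-04). GCLC, which makes the first intermediate of glutathione, had 0.006 (adjusted p = 0.949) and SELENOH 0.012 (adjusted p = 0.836). SLC30A1 and SLC39A10 are counted in 2 lists each. The list was not split by whether MTF1 raises or lowers a gene, so its counts do not measure MTF1 activity.

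Of 10 genes that heavy metals induce along with metallothioneins, 5 were higher and 3 lower, against 25.9% of all genes tested in each direction. Of the 10, 2 passed 2-fold, against 5.82% of all genes tested. These were HSPA1A and HSPA1B, near-identical HSP70 genes whose split of reads is uncertain, at log2 fold changes of 1.32 (adjusted p = 7.83e-09) and 1.10 (adjusted p = 1.44e-08). SLC7A11, the cystine importer, had the largest fall (-0.57, adjusted p = 3.01e-07), and TXNRD1, a thioredoxin reductase and the best counted of the list, had 0.056 (adjusted p = 0.243). HMOX1, the heme oxygenase that cadmium induces, was at 36.5 ± 1.98 CPM in HG-NC against 36.6 ± 1.94 CPM in HG-OE (SD, n = 3, adjusted p = 0.942); it was chosen after its value was seen.

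Of 10 genes that glucocorticoids induce, 9 were tested, with a median log2 fold change of -0.44. Of the 9, 6 were lower and 3 higher, against 25.9% of all genes tested in each direction. SGK1 had the largest fall, from 256.6 ± 7.29 to 147.9 ± 6.54 CPM (log2 fold change -0.80, SE 0.043, edgeR adjusted p = 8.57e-09). NFKBIA, the inhibitor of NF-kB and the best counted of the list, also fell (-0.57, adjusted p = 6.24e-08). CRISPLD2, a secreted protein, rose from 50.4 ± 2.13 to 111.1 ± 3.02 CPM (1.14, adjusted p = 6.40e-10). Without HG-OE replicate 3, the zinc importers had 5 higher and 4 lower and the copper list 6 and 5, and the counts of the other 4 lists were the same. Among the zinc exporters the genes called changed, as SLC30A9 lost its call (edgeR adjusted p = 0.0934) and SLC30A7 gained one (0.0166). Over all genes, the fit without HG-OE replicate 3 called 4636 of 17366 higher and 4719 lower.

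**Figure D5:**
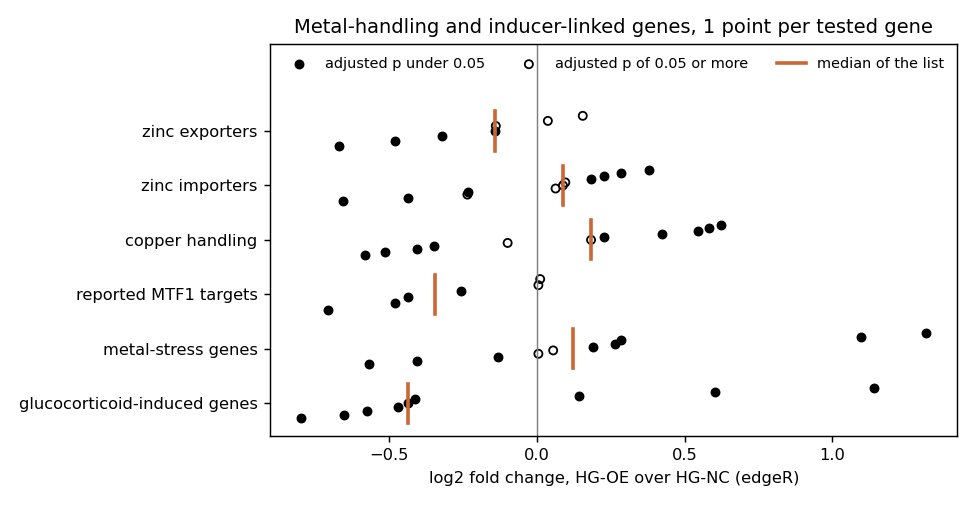
Each point is a tested gene placed by its log2 fold change of HG-OE over HG-NC (x axis), in rows for 6 gene lists. Filled points had an edgeR adjusted p under 0.05 and open points did not, and the vertical bar is the median of the list. The zinc exporters and MTF1 targets have filled points below 0 and none above, and the other lists have them on both sides.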

How the data were processed

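RNA-seq of HK-2 cells in high glucose was analysed from 3 HG-NC and 3 HG-OE libraries, grouped by their labels. Per the submitters' processing notes and the study's methods, reads were quality-trimmed and mapped with HISAT2 to GRCh38, and the authors deposited whole-number counts of uniquely mapped reads per gene, without normalization, and FPKM values rounded by the authors. The counter and annotation are not given in the sources used here, nor whether the ComBat_seq correction that the study names entered these counts. The libraries are directional, and whether counting used strand is not given. Depth was 25507595 to 29444841 counts per library.

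The count test was that of edgeR 4.0.16 in R 4.3.3 (TMM, default low-count filter, quasi-likelihood test, Benjamini-Hochberg adjustment over the 17142 genes kept). CPM was scaled by TMM. Mean CPM of a member was also compared by exact permutation of the libraries (two-sided). The steps were tested on simulated data. Gene positions and coding sequences came from GENCODE release 44, promoters from RefSeq (GRCh38.p14).

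Members and gene lists were chosen with earlier results of these data known. Named were all members, the family's other genes, HNRNPF, the 5 genes most like MT2A, the 3 nearest tested genes on each side of the cluster, and in each list the largest rise and the largest fall among genes called, and the best counted gene. Where the text names others, they were chosen after their values were seen. Alternatives were DESeq2 1.42.0 size factors and Wald test, leaving the filter off or asking for at least 10 counts in each library, a block for the replicate number, limma 3.58.1 on log2(FPKM + 1) and log2(FPKM + 0.1) with a mean FPKM of at least 0.1, the former also without that minimum, each library left out, FPKM shares, and the median of neighbouring genes removed. The replicate numbers did not pair the libraries.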

Additional observations from a re-analysis of the deposited data

How the results depend on the processing

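MT2A, MT1E, MT1X and MT1F kept their direction under all 15 alternatives and passed the test in each one that gives a test. The count of genes called at 2-fold was 997, and 1539 without the low-count filter, 617 with at least 10 counts in every library, 144 with limma on log2(FPKM + 1) and 138 with the same without a minimum; these alternatives test other sets of genes or shrink low values by the pseudocount. MTF1 lost its call in 9 of 15 alternatives: the Wald test of DESeq2 (-0.21), limma on log2(FPKM + 1) with (-0.16) and without (-0.16) a minimum and on log2(FPKM + 0.1) (-0.21), the replicate block (-0.21, adjusted p = 0.0511) and 4 of the 6 libraries left out (range over all 6: -0.25 to -0.14). The cause was not tested. MT1M ran from -0.53 to -0.22 with a library left out, passing in 2 cases. MT1A turned to -0.019 without HG-OE replicate 2 and -0.014 without HG-OE replicate 3 (range over libraries left out: -0.019 to 0.20), and MT1G to -0.77 without HG-OE replicate 3 (range -0.77 to 0.86). Same-numbered libraries of the groups had correlations of deviations of 0.0244 to 0.0575, so the replicate numbers were not taken as pairs, and HG-NC replicate 3 correlated best with HG-OE replicate 2. With the replicate block 990 genes were called at 2-fold, and of the 8 genes it changed the call of MTF1 alone. Taken per length, as FPKM shares, the shares in HG-NC and HG-OE were 77.9% and 76.1% for MT2A, 13.9% and 14.4% for MT1E, 4.48% and 4.69% for MT1X, 1.63% and 1.82% for MT1F, 1.35% and 1.76% for MT1M and 0.53% and 0.927% for MT1A. Depth limits MT1G, at 5 to 39 counts a library.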
